A study of Homo sapiens with 9 samples.

Results

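The genes described here encode the inhibitors of cyclin-dependent kinases (CDKs), chosen by name from the table of array values, and were compared over the 3 groups of the study. Of 8 genes listed (CDKN1A, CDKN1B, CDKN1C, CDKN2A, CDKN2B, CDKN2C, CDKN2D and CDKN3), 7 had a probe set of their own among the 18417 genes tested, and CDKN2C was not analysed here. The cells were IMR90 human lung fibroblasts (IRM90 in the labels) carrying ER:RAS, in which the estrogen receptor's ligand-binding domain keeps an oncogenic RAS inactive until 4-hydroxytamoxifen (4OHT) is added. Non-senescent cells (vector-4OHT) held an empty vector and got no 4OHT, senescent cells (vector+4OHT) held the same empty vector and got 4OHT at 100 nM, and knockdown cells (shARID1B+4OHT) held a short hairpin RNA against ARID1B, a subunit of the SWI/SNF chromatin remodeling complex, and got the same 4OHT. All carried ER:RAS, and the labels give 6 days after 4OHT for all 9 arrays, 3 in each group. The labels list neither a group with 4OHT but without ER:RAS, nor a control hairpin, nor shARID1B without 4OHT, so effects of the drug and of RAS, or of the hairpin vector and of ARID1B loss, cannot be told apart. How many hairpin sequences were used is not in the labels. The study's legend calls the 3 arrays of a group biological replicates, which the labels do not describe further.

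CDK inhibitors are the brakes of the cell cycle, and several of them are classic markers of oncogene-induced senescence. The CIP/KIP proteins p21 (CDKN1A), p27 (CDKN1B) and p57 (CDKN1C) bind complexes of a cyclin and a CDK, above all those of CDK2. The INK4 proteins p16 (CDKN2A), p15 (CDKN2B) and p19 (CDKN2D) bind CDK4 and CDK6 alone and keep them from cyclin D, so that RB stays active and E2F target genes stay silent. CDKN3 encodes a phosphatase that removes the activating phosphate of CDK2 and is itself made mainly in dividing cells.

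Levels are log2 expression values, 1 per probe set and array, and ± beside a level is the SD over a group (n = 3). A gene was called where limma's Benjamini-Hochberg adjusted p, over all 18417 genes, lay under 0.05. The median of all values, 6.746, served as the mark below which a level was not shown to be above background. The RNA was measured in bulk, so fewer cells that make a transcript and less of it per cell cannot be told apart. All 10 fibroblast markers lay above that mark in every group, and 7 of 7 leukocyte markers lay below it. Of 8 endothelial markers 6 lay below it in every group, as did 2 of 6 epithelial ones, namely CDH1 and EPCAM. The epithelial markers KRT8, KRT18 and KRT19 lay above it in every group, and CLDN4 in shARID1B+4OHT alone.

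ARID1B, the target of the hairpin, was lower in the cells that held it. It stood at 8.93, 8.85 and 8.94 in vector-4OHT, at 8.63, 8.96 and 8.77 in vector+4OHT, and at 8.07, 7.96 and 8.13 in shARID1B+4OHT. Every knockdown array lay below every vector array, at a log2 change of -0.73 ± 0.081 (SE) from senescent cells (adjusted p = 0.000179).

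The first question is which inhibitors differed between vector cells with and without 4OHT, the comparison named senescence here. Of the 7 measured genes, 5 were called in senescence, where 32.6% of all genes were called. CDKN1A, CDKN2A and CDKN2B rose (14.9% of all genes were called higher), CDKN1B and CDKN3 fell (17.6% were called lower), and CDKN1C and CDKN2D were not called. The second question is what the ARID1B hairpin did to the same genes in 4OHT-treated cells. There 1 of the 7, CDKN1A, was called, beside 15.7% of all genes (6.09% lower, 9.63% higher). The arrays of the groups compared did not overlap for the same 5 genes in senescence, beside 40.1% of all genes (18.3% higher, 21.7% lower). With the hairpin they did not overlap for 4, CDKN1A and CDKN2A lower and CDKN1B and CDKN2B higher, beside 32.5% of all genes (14.8% lower, 17.7% higher).

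**Figure D1:**
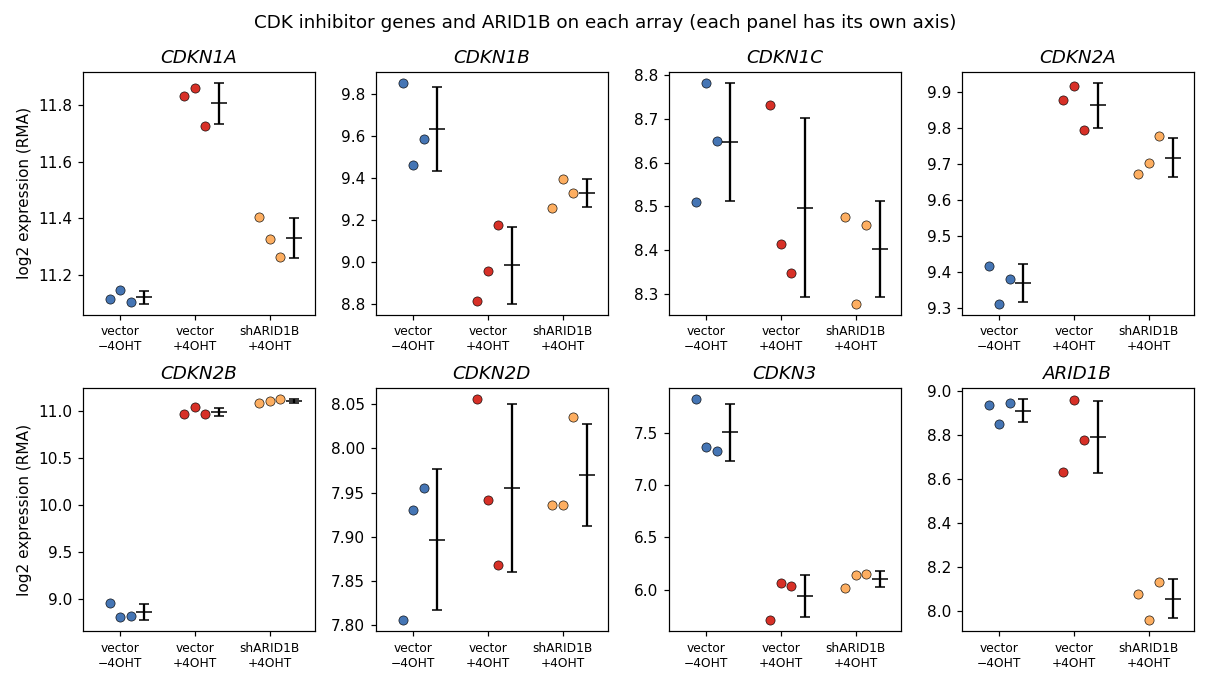
Log2 expression (RMA, y axis of each panel) of the 7 measured CDK inhibitor genes and ARID1B on the 3 arrays of each group (points, in replicate order), with mean ± SD beside them. CDKN2B goes from a mean of 8.86 without 4OHT to 10.99 and 11.10 in the groups with 4OHT, while the shARID1B+4OHT arrays of CDKN1A, at 11.26 to 11.40, lie between those of the vector groups.

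The stretches of 250 bases before the transcription starts of the genes that moved are shown so that the letters upstream of risers and fallers can be set side by side. They come from RefSeq (build GRCh38.p14) and read 5′ to 3′ on the gene's own strand. The table matched 6 of the 7 measured genes, all but CDKN1C. Capitals mark 3 motifs searched on both strands, namely the GC box GGGCGG, which SP1 factors bind, the CCAAT box CCAAT, which NF-Y binds, and the CHR element TTTGAA, known from promoters that the DREAM complex and B-MYB use in cell cycle genes. CDKN2A has a separate start for each of its products, p16 and ARF.
CDKN1A, chr6:36678464-36678713, plus strand: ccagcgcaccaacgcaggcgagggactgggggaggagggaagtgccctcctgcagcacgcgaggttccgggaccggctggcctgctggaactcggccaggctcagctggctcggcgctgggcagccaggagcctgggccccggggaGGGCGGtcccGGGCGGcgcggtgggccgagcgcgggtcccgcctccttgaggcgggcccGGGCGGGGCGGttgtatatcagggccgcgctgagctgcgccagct
CDKN1B, chr12:12717118-12717367, plus strand: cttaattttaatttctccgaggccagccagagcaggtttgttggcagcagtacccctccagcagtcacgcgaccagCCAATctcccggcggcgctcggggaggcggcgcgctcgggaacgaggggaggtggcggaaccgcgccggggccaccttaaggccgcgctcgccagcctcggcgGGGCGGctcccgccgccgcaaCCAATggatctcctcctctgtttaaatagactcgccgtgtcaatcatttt
CDKN2A, start of the p16 transcript, chr9:21974858-21975107, minus strand: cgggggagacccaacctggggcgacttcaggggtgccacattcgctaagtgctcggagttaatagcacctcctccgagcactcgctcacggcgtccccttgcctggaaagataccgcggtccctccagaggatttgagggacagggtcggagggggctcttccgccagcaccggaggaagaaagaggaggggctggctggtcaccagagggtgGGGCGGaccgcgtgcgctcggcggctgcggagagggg
CDKN2A, start of the ARF transcript, chr9:21995325-21995574, minus strand: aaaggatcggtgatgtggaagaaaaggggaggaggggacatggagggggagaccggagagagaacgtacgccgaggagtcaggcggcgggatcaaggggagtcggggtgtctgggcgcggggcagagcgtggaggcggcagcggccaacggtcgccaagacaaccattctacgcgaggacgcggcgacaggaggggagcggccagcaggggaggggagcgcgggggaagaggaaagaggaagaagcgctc
CDKN2B, chr9:22009306-22009555, minus strand: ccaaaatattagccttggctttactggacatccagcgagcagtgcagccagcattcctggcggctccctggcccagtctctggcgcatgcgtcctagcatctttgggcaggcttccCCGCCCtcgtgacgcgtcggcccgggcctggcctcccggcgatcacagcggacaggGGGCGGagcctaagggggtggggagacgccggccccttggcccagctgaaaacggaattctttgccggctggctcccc
CDKN3, chr14:54396757-54397006, plus strand: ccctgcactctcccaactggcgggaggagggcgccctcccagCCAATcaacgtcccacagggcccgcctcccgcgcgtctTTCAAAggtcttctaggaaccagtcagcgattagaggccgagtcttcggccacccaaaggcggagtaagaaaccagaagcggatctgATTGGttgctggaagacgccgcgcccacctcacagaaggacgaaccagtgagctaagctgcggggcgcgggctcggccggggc
CDKN1A held 4 GC boxes, of which the nearest began 40 bases before the start and overlapped by 1 base the next, at 45. CDKN2B held 2, CDKN1B and the p16 start of CDKN2A 1 each, and the ARF start and CDKN3 0. Of 35116 promoter windows of this length, 42.6% held a GC box. CDKN3 held 2 CCAAT boxes and a CHR element 170 bases before its start, a pair of motifs that 4.69% of all windows held together, and CDKN1B held 2 CCAAT boxes (32% of windows held any). The window of CDKN2D, a gene not called in any comparison and not printed above, held 2 GC boxes and 1 CCAAT box. These matches describe letters in a window and are not evidence of binding.

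CDKN1A, which encodes p21, the inhibitor best known as a target of p53, rose in senescence and fell back with the hairpin. Its level was 11.11, 11.15 and 11.10 in vector-4OHT, 11.83, 11.86 and 11.73 in vector+4OHT, and 11.40, 11.33 and 11.26 in shARID1B+4OHT. The 3 groups did not overlap, and the knockdown arrays lay nearer to the non-senescent ones. The rise in senescence was 0.69 ± 0.056 (SE) on the log2 scale, or 1.61-fold (adjusted p = 3.99e-06). With the hairpin the level was 0.48 ± 0.056 lower, or 28.1% (log2 change -0.48, adjusted p = 0.000279). What remained over non-senescent cells was 0.21 (95% interval 0.0861 to 0.334, adjusted p = 0.0146), and this call was lost without shARID1B+4OHT replicate 1 (0.17, adjusted p = 0.0636).

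CDKN1B, which encodes p27, an inhibitor known to be controlled largely through protein breakdown, moved the other way. It stood at 9.85, 9.46 and 9.58 in vector-4OHT, at 8.82, 8.96 and 9.18 in vector+4OHT, and at 9.26, 9.39 and 9.33 in shARID1B+4OHT. No senescent array reached the lowest array of either other group. The change in senescence was -0.65 ± 0.108 (SE), a level 36.2% lower (adjusted p = 0.000744). By the 2-tailed test of the study's methods the same change had an adjusted p of 0.0627 and was not called. The knockdown arrays lay 0.34 above the senescent ones (95% interval 0.105 to 0.581), with an adjusted p of 0.056 that did not pass. It passed with the 6 compared arrays alone (0.0492), without dim genes (0.0329), with a variance trend (0.0371), and without vector-4OHT replicate 1 (0.0296), vector-4OHT replicate 2 (0.0489) or vector+4OHT replicate 3 (0.0211), so this call hangs on the setting.

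CDKN1C, which encodes p57, an imprinted gene of the same family, was not called in any comparison. Its arrays ran from 8.51 to 8.78 in vector-4OHT, from 8.35 to 8.73 in vector+4OHT and from 8.28 to 8.47 in shARID1B+4OHT. The senescence change was -0.15 (95% interval -0.382 to 0.0821, adjusted p = 0.339). That change was called without vector+4OHT replicate 1 (-0.27, adjusted p = 0.0421), the highest of the 3 senescent arrays. With the hairpin the change was -0.09 (95% interval -0.326 to 0.138, adjusted p = 0.603).

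CDKN2A shares 1 probe set between p16, the inhibitor of CDK4 and CDK6, and ARF, the inhibitor of MDM2, since its annotation lists transcripts of both. The values therefore cannot be given to either product. They were 9.42, 9.31 and 9.38 in vector-4OHT, 9.88, 9.91 and 9.79 in vector+4OHT, and 9.67, 9.70 and 9.78 in shARID1B+4OHT. Both groups with 4OHT lay above the one without it, and the groups with 4OHT did not overlap, the highest knockdown array standing just under the lowest senescent one. The rise in senescence was 0.49 ± 0.055 (SE), or 1.41-fold (adjusted p = 4.08e-05). With the hairpin the change was -0.14 (95% interval -0.266 to -0.0238, adjusted p = 0.108), which did not pass. The level remained 0.35 above that of non-senescent cells (adjusted p = 0.000544).

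CDKN2B, which encodes p15, an INK4 inhibitor that TGF-beta is known to induce, had the largest change of the 7 in senescence. Its level was 8.95, 8.80 and 8.81 in vector-4OHT, 10.96, 11.04 and 10.96 in vector+4OHT, and 11.08, 11.10 and 11.12 in shARID1B+4OHT. The groups with 4OHT stood far above the one without, by 2.13 ± 0.054 (SE) or 4.38-fold in senescent cells (adjusted p = 4.72e-10), which by p-value ranked 42 among the 18417 genes. All 3 knockdown arrays lay above all 3 senescent ones. The change was 0.11 (95% interval -0.00674 to 0.234, adjusted p = 0.204), which did not pass. The level in knockdown cells was 4.74-fold that of non-senescent cells (adjusted p = 3.68e-10).

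CDKN2D, which encodes the INK4 protein p19, was not called in any comparison. Its 9 arrays lay between 7.81 and 8.06 and overlapped in every comparison. The changes were 0.06 in senescence (95% interval -0.084 to 0.201, adjusted p = 0.575) and 0.01 with the hairpin (95% interval -0.128 to 0.157, adjusted p = 0.912).

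CDKN3, the phosphatase of CDK2 made in dividing cells, fell in senescence. It stood at 7.82, 7.36 and 7.33 in vector-4OHT, at 5.71, 6.07 and 6.04 in vector+4OHT, and at 6.02, 6.14 and 6.15 in shARID1B+4OHT. Both groups with 4OHT lay below all non-senescent arrays and below the median of all values, so the size of the fall is uncertain. It measured -1.56 ± 0.131 (SE), or 0.338 times the non-senescent level (adjusted p = 4.84e-06). With the hairpin the change was 0.17 (95% interval -0.124 to 0.456, adjusted p = 0.448).

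**Figure D2:**
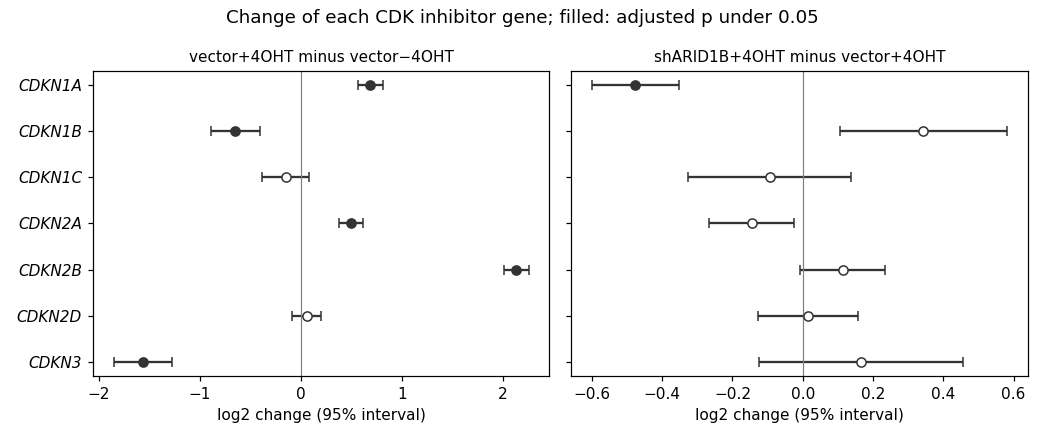
Log2 change (x axis) with its 95% interval for each of the 7 genes in senescence (left) and with the ARID1B hairpin in the presence of 4OHT (right); filled points have a limma adjusted p under 0.05. The scales differ, with CDKN2B at 2.13 and CDKN3 at -1.56 on the left, and CDKN1A at -0.48 as the filled point on the right.

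How much of the senescence change was left in knockdown cells is given for each gene. For the 5 genes called in senescence, this is the knockdown level minus the non-senescent mean, as a share of the senescent minus the non-senescent mean, in log2 units. It is a description, since both parts share the non-senescent arrays. The ranges given are over the knockdown arrays and leave out the spread of the vector arrays. CDKN1A kept 30.6% of its rise (20.6% to 41.2% over the 3 knockdown arrays) and CDKN1B 47.0% of its fall (36.8% to 57.8%). CDKN2A kept 70.6% (61.2% to 82.9%) and CDKN2B 105.3% (104.4% to 106.3%). With array medians subtracted, CDKN1A stood at 37.5% and CDKN1B at 39.8%, in the same order but closer. The ranges of their single arrays overlapped, so that the order is not settled. The value for CDKN3, 89.4% (86.2% to 95.1%), rests on the 2 groups with 4OHT, whose levels were not shown to be above background. It is not ranked with the others. Against non-senescent cells, knockdown cells were still called for 4 of the 7 genes, 3 higher (CDKN1A, CDKN2A and CDKN2B) and 1 lower (CDKN3), beside 31.5% of all genes (15.6% higher, 15.9% lower). The arrays of these groups did not overlap for 6 genes, all but CDKN2D, with 3 higher and 3 lower, beside 45.9% of all genes (20.8% higher, 25.1% lower). CDKN1B was at -0.30 (adjusted p = 0.0535).

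**Figure D3:**
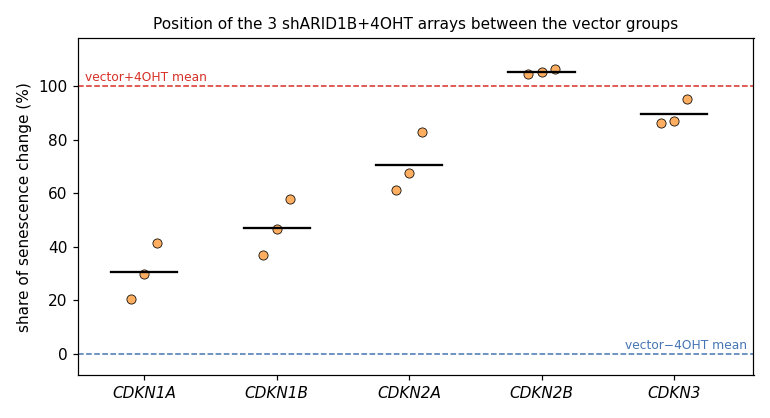
Position of the 3 shARID1B+4OHT arrays (points) and of their mean (bar) between the vector-4OHT mean, set to 0%, and the vector+4OHT mean, set to 100%, for the 5 genes called in senescence. The CDKN1A mean lies lowest, with arrays at 20.6% to 41.2% that overlap those of CDKN1B, and CDKN2B arrays lie above 100%. CDKN3 was below the median of all values in both groups with 4OHT.

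Whether the hairpin moved these genes unequally was tested on the difference of paired probe sets within each array, by an exact 2-sided permutation of 3 against 3 arrays, whose smallest p is 0.1. The knockdown change of CDKN1A lay 0.33 below that of CDKN2A, 0.59 below that of CDKN2B and 0.82 below that of CDKN1B (difference -0.33, -0.59 and -0.82, exact p = 0.1 for each). CDKN2A lay 0.26 below its neighbor CDKN2B (difference -0.26, exact p = 0.1). Adjusted over the 21 pairs these p-values are 0.191, and the design could not reach 0.05. CDKN1A against CDKN1C, CDKN2D or CDKN3 had the same exact p of 0.1, as had other pairs not named. The p-values therefore do not single out the pairs given here.

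The kinases and cyclins that the inhibitors bind went both ways in senescence. Of 13 measured partners 4 were higher and 7 lower (84.6% called, beside 32.6% of all genes), at a median of -0.24 (-0.012 over all genes). CCNA2, the cyclin of S phase and of G2, fell from 9.24 to 7.76 (0.359 times, adjusted p = 5.05e-08), while CDK2 itself rose 2-fold from 9.32 to 10.32 (adjusted p = 1.53e-07). With the hairpin 2 were higher and 3 lower (38.5%, beside 15.7% of all genes). CCND2, a D-type cyclin, fell by 0.59 (adjusted p = 0.000139) and CDK6, which p16 and p15 bind, by 0.56 (adjusted p = 0.000441). Of 13 RB and E2F factors 1 was higher and 3 lower in senescence and 1 was higher and 1 lower with the hairpin, shares of 30.8% and 15.4% that lay near those of all genes. E2F7, a repressor of E2F target genes, rose 4.62-fold (adjusted p = 3.83e-10) and then fell by 0.56 with the hairpin (adjusted p = 8.48e-05), and the RB relative RBL1 fell by 0.90 in senescence to a level below the median of all values. E2F5 rose by 0.32 with the hairpin (adjusted p = 0.0191).

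Of 9 measured p53 regulators 1 was higher and 2 lower in senescence, a share of 33.3% beside 32.6% of all genes, with MDM4, which restrains p53, at -0.75 (adjusted p = 8.02e-05) and the damage kinase ATM up by 0.34 (adjusted p = 0.00564). With the hairpin 3 were higher and 0 lower (33.3%, beside 15.7% of all genes). They were the checkpoint kinase CHEK2 (0.22), the ubiquitin protease USP7 (0.26) and MDM4 (0.35). In senescent cells CHEK2 lay below the median of all values. Of 20 other p53 targets, 7 were higher and 2 lower in senescence (45% called), at a median of 0.08, and 4 were higher and 4 lower with the hairpin (40% called), at a median of 0.00575. PLK3, a stress-response kinase, rose by 1.30 and then fell by 0.39 (adjusted p = 4.04e-08 and 0.00128). TNFRSF10B, a death receptor, rose by 0.80 in senescence, and PLK2, a relative of PLK3, rose by 0.41 with the hairpin.

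Around the INK4 locus, 5 of 12 measured neighbors and regulators were higher and 2 lower in senescence (58.3% called, beside 32.6% of all genes). ID1, which blocks the ETS and bHLH factors that can activate CDKN2A, rose 2.81-fold (adjusted p = 1.57e-06) and a further 3.34-fold with the hairpin (adjusted p = 4.63e-06). ETS2, such an activator, rose by 0.62 in senescence, and its relative ETS1 fell by 0.61 with the hairpin (adjusted p = 9.96e-05). MTAP, which lies beside CDKN2A on chromosome 9 and was picked after its values were seen, rose by 0.79 in senescence (adjusted p = 3.98e-06) and changed by -0.02 with the hairpin (adjusted p = 0.876). With the hairpin, 2 of the 12 were higher and 1 lower (25% called, beside 15.7% of all genes). Of 11 genes of p27 turnover and transcription, 1 was higher and 1 lower in senescence (18.2% called, under the share of all genes) and 0 were called with the hairpin by limma, with 3 at an unadjusted p under 0.05 (1 and 0, unadjusted and adjusted, by the 2-tailed test of the study's methods). SKP2, the ubiquitin ligase subunit that marks p27 for breakdown, fell by 0.94 (adjusted p = 1.53e-06), and RNF123, part of another ligase of p27, rose by 0.32 (adjusted p = 0.0121).

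Cell division genes fell beside CDKN3. Of 16 mitosis genes 15 were lower in senescence and 0 higher (93.8% called, beside 32.6% of all genes), at a median of -1.48. NUSAP1, a spindle protein, stood at -1.64 and the kinase PLK1 at -1.48. Of 16 DNA replication genes 14 were lower and 0 higher (87.5% called), at a median of -0.57, with RRM2, of ribonucleotide reductase, at -1.19 and the primase subunit PRIM1, which ended below the median of all values, at -1.25. With the hairpin, 2 mitosis genes were higher and 2 lower (25% called, beside 15.7% of all genes), at a median of -0.03. Of the replication genes 4 were higher and 1 lower (31.2% called), at a median of 0.10 (-0.017 over all genes). NUSAP1 rose by 0.40 (adjusted p = 0.00227), CDC20, an activator of the anaphase ligase, fell by 0.32, TYMS, thymidylate synthase, rose by 0.42, and PCNA, the sliding clamp, rose by 0.32.

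**Figure D4:**
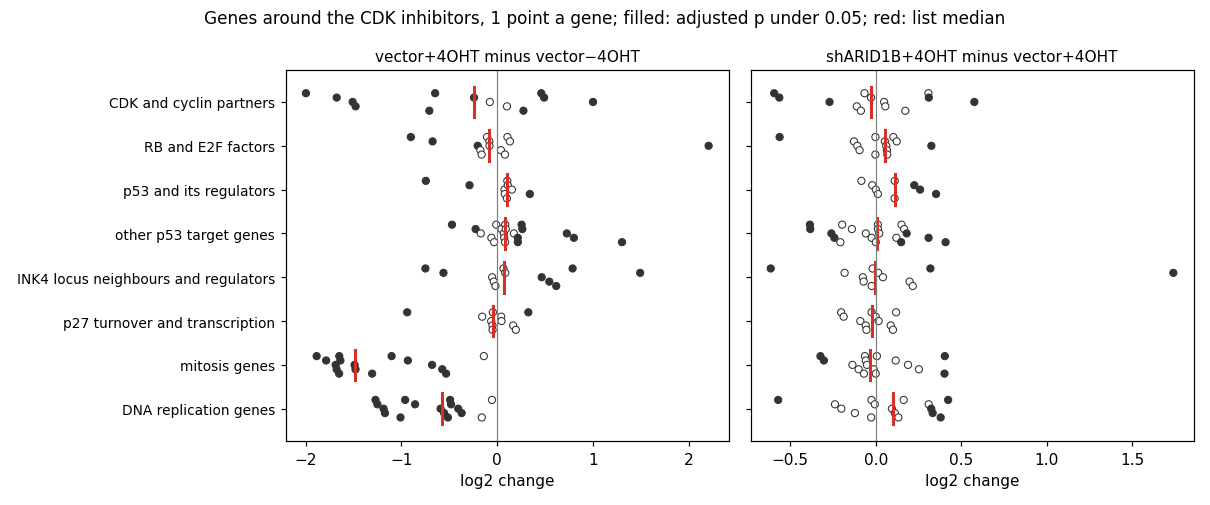
Log2 change (x axis) of each gene (point) in 8 lists around the CDK inhibitors, in senescence (left) and with the ARID1B hairpin (right); filled points have a limma adjusted p under 0.05 and red bars are list medians. On the left the mitosis genes lie to the left of 0 at a median of -1.48, and on the right the list medians lie between -0.03 and 0.11, with ID1 at 1.74 farthest out.

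The genes whose profiles were most like those of the inhibitors were sought by the root mean square difference over the 9 arrays, after each gene was centered on its own mean. Arrays of 3 groups share their group's state, so this likeness is a description. For CDKN1A, whose own root mean square was 0.291, they were LIMS1, an adaptor of focal adhesions, CRACR2A, a calcium sensor, and NTM, an adhesion protein, at differences of 0.0513 to 0.0614. For CDKN2A they were TPCN1, a cation channel of endosomes, the glycolytic enzyme GPI and the methyltransferase NTMT1, at 0.0399 to 0.0443 beside 0.212. For CDKN2B they were NFKBIZ, a nuclear regulator of the NF-κB pathway, SEMA6D, a semaphorin, and KCNG1, a potassium channel subunit, at 0.106 to 0.112 beside 1.03. For CDKN1B they were ABRAXAS1, of a BRCA1 complex, RIMKLB and the mitotic kinase MASTL, at 0.0608 to 0.0693 beside 0.295. For CDKN3 all 3 are known from cell division, namely PLK4, the kinase of centriole duplication, NUF2, of the kinetochore, and PRC1, of the spindle midzone, at 0.085 to 0.103 beside 0.720.

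Among markers of cell types, the share called in senescence was 80% for fibroblast markers, 33.3% for epithelial, 25% for endothelial and 0% for leukocyte ones, beside 32.6% of all genes. Of 7 leukocyte markers limma called 0 in senescence and 0 with the hairpin, with 0 at an unadjusted p under 0.05 in either (1 and 0 by the 2-tailed test of the study's methods, which after adjustment called 0 in both), and of 8 endothelial markers 1 was higher and 1 lower in each. Of 6 epithelial markers 2 were lower in senescence and 2 higher with the hairpin, with KRT19, a keratin, at -1.10 and 0.86. Fibroblast markers were lower in 8 of 10 in senescence, with DCN, the proteoglycan decorin, at -1.60, and went both ways with the hairpin (2 higher, 2 lower). The share called with the hairpin was 40% for fibroblast, 33.3% for epithelial, 25% for endothelial and 0% for leukocyte markers, beside 15.7% of all genes. The mean log2 level over each list ranged over the 3 groups from 7.05 to 7.28 for epithelial, 5.60 to 5.67 for leukocyte, 6.05 to 6.07 for endothelial and 11.22 to 11.59 for fibroblast markers. The part of these shifts in the values of the inhibitors was not tested.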

How the data were processed

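Total RNA was measured on Affymetrix Human Gene ST arrays, by the labelling protocol and probe annotation; the labels' extraction text instead names a sequencing library kit. The deposited values are on the log2 scale, 1 per probe set and array, and per the labels were made with RMA (background correction, quantile normalization and probe summary), oligo and limma, with versions and genome build not given in the sources used here. Of 33297 probe sets, 19460 carried 1 gene symbol, 1754 several and 12083 none. The probe set with the highest mean was kept for the 769 genes with more than 1, which left 18417 genes. Of the 19460, 19429 matched RefSeq (GRCh38.p14) by Entrez number, used for names.

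All 9 arrays were fitted with limma 3.58.1 (lmFit, eBayes) in R 4.3.3, with 1 mean per group, no covariate, and 6 residual degrees of freedom (10.45 with the prior). Tests were 2-sided, adjusted by Benjamini-Hochberg over all genes. The fit was tested on simulated data. The genes, lists, naming rule and tests were chosen with earlier results of these data known. Named genes were the members, ARID1B, up to 2 called genes with the smallest p-values per list and comparison, and the 3 most alike in profile per called member. Array medians lay between 6.70 and 6.79, and arrays correlated at 0.9955 to 0.9972 within groups and 0.9874 to 0.9956 between them, across probe sets. For 721 genes, none of them described here as a member, the 3 arrays of a group held 1 value. The number of arrays limits the precision. Alternatives were to block on the replicate number, to fit just the 6 arrays of a comparison, to drop dim genes (at or under the median of all probe sets unless above it on 3 arrays or more), all probe sets, mean of probe sets, array medians subtracted, a variance trend, the methods' Student test, and leaving out each array.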

Additional observations from a re-analysis of the deposited data

How the results depend on the processing

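Over 18 alternatives, 410 of 432 gene values (7 inhibitors and ARID1B, 3 comparisons) kept direction and side of the threshold, 2 lost and 17 gained a call, and 3 uncalled values changed sign. Direction could change only with array medians subtracted or with an array of the compared groups left out. The other settings reuse the same log2 changes, since each of these genes has 1 probe set. For those settings the tally bears on the threshold alone. Genes called in senescence numbered 5, and 4 to 6 under alternatives, with CDKN1B lost under the methods' Student test after adjustment (adjusted p = 0.0627). With the hairpin the count of 1 became 2 with only the 6 arrays compared, with dim genes left out and with a variance trend, CDKN1B being added each time, and 4 under the methods' Student test without adjustment (CDKN1A, CDKN1B, CDKN2A and CDKN2B). Leaving out 1 array gave 1 to 2. CDKN1A was called with the hairpin under every alternative (adjusted p 2.39e-05 to 0.0282). Against non-senescent cells the count of 4 ranged from 3 to 6. With 1 array left out, the hairpin change of CDKN1C ran from -0.169 to 0.023, above 0 without vector+4OHT replicate 1, and that of CDKN2D from -0.029 to 0.065, below 0 without vector+4OHT replicate 3 (-0.029) or shARID1B+4OHT replicate 3 (-0.019). Over all genes, the methods' Student test after adjustment called 3737 in senescence (5996 with limma) and 1446 with the hairpin (2895). Leaving out shARID1B+4OHT replicate 2 gave 1801 with the hairpin by limma. The cause was not tested.

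With array medians subtracted, the share left of the senescence change was 37.5% for CDKN1A, 39.8% for CDKN1B, 77.4% for CDKN2A, 106.4% for CDKN2B and 87.5% for CDKN3. Leaving out 1 array gave 25.3% to 35.6% for CDKN1A, 36.3% to 54.0% for CDKN1B, 64.4% to 75.3% for CDKN2A, 104.7% to 106.6% for CDKN2B and 85.9% to 96.4% for CDKN3. The labels do not say whether the replicate numbers pair the arrays. Deviations of same-numbered arrays correlated at -0.264 to 0.322, with 1 of 9 pairs over 0.1, and 2 of 9 arrays correlated best with their own number. With 3 arrays in a group, these values cannot decide whether the arrays were paired. With the replicate block 5, 1 and 4 inhibitors were called in the 3 comparisons, as without it, and 5658, 2498 and 5437 genes.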
